A study of Mus musculus with 15 samples.

Results

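The 10 genes described here, Acta2, Tagln, Tagln2, Cnn2, Tpm1, Tpm2, Myl9, Vim, Des and Pdgfrb, encode proteins of the contractile and filament apparatus of activated hepatic stellate cells, together with the growth factor receptor that those cells carry. They were chosen by name, as all probe sets whose only annotated symbol is 1 of the 10, and they make up 24 of the 34945 single-symbol probe sets and 10 of the 18193 symbols on the array. A gene entered the tests where a probe set reached a log2 value of 4, the level under which values lie close to background, on at least 3 arrays. Of the 10 genes 8 did so, through 13 probe sets, among 9482 genes in all. Des and Myl9 did not. Markers of stellate cells other than the members passed the filter in 16 of 19 cases, so such cells were represented, but desmin, a classical marker of them, did not, and none of the 10 genes is particular to this cell type in the liver.

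The samples were whole livers of mice aged 15 weeks, 1 array each, measured on an Affymetrix mouse expression array. The treated mutant group (4 arrays, numbered 8 to 11) was C3H/HeJ mice with the Tlr4P712H allele, given diethylnitrosamine (DEN, a liver carcinogen, 100 mg/kg at 12 weeks) and carbon tetrachloride (CCl4, a liver toxin, 0.50 ml/kg at 13 and at 15 weeks) and killed 48 hours after the last CCl4. The antibiotic group (4 arrays, 12 to 15) was C3H/HeOuJ mice, wild type for Tlr4, that drank ampicillin, neomycin and metronidazole (1 g/l each) and vancomycin (500 mg/l) for 2 weeks from week 10 and then received the same DEN and CCl4. Treated wild type (4 arrays, 4 to 7) was C3H/HeOuJ mice given DEN and CCl4 without antibiotics, and untreated wild type (3 arrays, 1 to 3) was C3H/HeOuJ mice given nothing. The mutant differed from the wild type in strain as well as in the Tlr4 allele, and these cannot be told apart. No untreated mutant and no mouse given antibiotics alone was analysed here, array 8 carries no sex in the labels while the others are male, and no batch is named.

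Hepatic stellate cells are the vitamin A storing pericytes of the liver sinusoid. After injury they lose their retinoid stores and turn into myofibroblasts, which assemble actin stress fibres, contract and lay down collagen. Platelet-derived growth factor acting on Pdgfrb and transforming growth factor beta are the best known signals of that change, and Acta2 is its most used marker. Many smooth muscle and cytoskeletal genes are regulated by serum response factor, which binds a DNA element called the CArG box. Tlr4, the receptor for bacterial lipopolysaccharide, is carried by stellate cells as well as by liver macrophages.

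Of the 10 promoters, 8 were matched in the RefSeq promoter table (build GRCm38.p6, 300 bases each, from 250 before the start site to 50 after it), and those of Tagln and Pdgfrb were not, so the counts leave them out. CArG boxes were searched on both strands. An exact match lay in 2 of the 8, Cnn2 and Myl9, against 1.63% of all 32851 promoters in the table, and a match with 1 mismatched base lay in 3 of the 8, Acta2, Myl9 and Tpm1, against 19.9% of all. The 180 bases before the start site are printed for those 4 genes, the ones that held a match. Among them Acta2 and Cnn2 were lower in the treated mutant and in the antibiotic group than in treated wild type. Myl9 did not reach the filter, and was lower in both (-1.62 and -0.67) in a fit with no filter on low values. Tpm1 did not pass the test in either comparison. Whether matches go with expression was not tested. Capitals mark the matches, which are exact in Cnn2 (starting 56 bases before the start site) and at the first place in Myl9 (161 before it), and have 1 mismatch at the second place in Myl9, at both in Acta2 (84 and 34 before it) and in Tpm1 (80 before it). The second Tpm1 match, 221 bases before the start, lies outside the printed stretch. The windows are chr19:34255374-34255553 (minus strand) for Acta2, chr10:79988420-79988599 (plus) for Cnn2, chr2:156775284-156775463 (plus) for Myl9 and chr9:67049214-67049393 (minus) for Tpm1.
Acta2: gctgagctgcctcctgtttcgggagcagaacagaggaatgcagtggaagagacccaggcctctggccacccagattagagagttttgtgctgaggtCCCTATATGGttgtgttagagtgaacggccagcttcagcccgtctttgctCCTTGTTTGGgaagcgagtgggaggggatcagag
Cnn2: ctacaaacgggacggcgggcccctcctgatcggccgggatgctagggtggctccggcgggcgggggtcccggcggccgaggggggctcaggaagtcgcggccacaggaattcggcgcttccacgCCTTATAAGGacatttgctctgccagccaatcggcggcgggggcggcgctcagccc
Myl9: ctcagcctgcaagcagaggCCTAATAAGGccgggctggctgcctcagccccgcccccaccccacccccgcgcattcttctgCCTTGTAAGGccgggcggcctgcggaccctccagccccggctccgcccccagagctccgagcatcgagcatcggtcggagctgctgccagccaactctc
Tpm1: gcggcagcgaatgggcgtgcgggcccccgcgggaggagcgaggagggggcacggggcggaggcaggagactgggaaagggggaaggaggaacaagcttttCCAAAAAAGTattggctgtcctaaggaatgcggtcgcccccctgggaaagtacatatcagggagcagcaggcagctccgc
A match is a description of letters in a window, and no binding was measured.

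The 8 genes that could be tested rose with DEN and CCl4, but Tagln passed the filter through treated arrays alone. All 8 were higher in treated than in untreated wild type, where 35.9% of all tested genes were called higher and 26.7% lower, and the 2 groups of arrays did not overlap for any of the 8 (37.5% of all genes lay higher without overlap). The median log2 difference of the 8 was 3.40, beside 0.10 over all genes. In the treated mutant 7 of the 8 were lower than in treated wild type (17.6% of all genes were called lower, 13.2% higher, and 17.6% lay lower without overlap), with a median of -1.69 beside 0.02. In the antibiotic group 6 of the 8 were lower than in treated wild type (9.01% lower, 4.95% higher), with a median of -0.86 beside -0.03, and without array 12 of that group the count was 3. All comparisons were tested with limma on the deposited log2 values, with a Benjamini-Hochberg adjusted p under 0.05 over all 9482 genes as the call. The mutant and antibiotic comparisons share the treated wild-type arrays and are given side by side. In RNA from a whole liver, fewer cells of a type and less RNA per cell cannot be told apart.

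**Figure D1:**
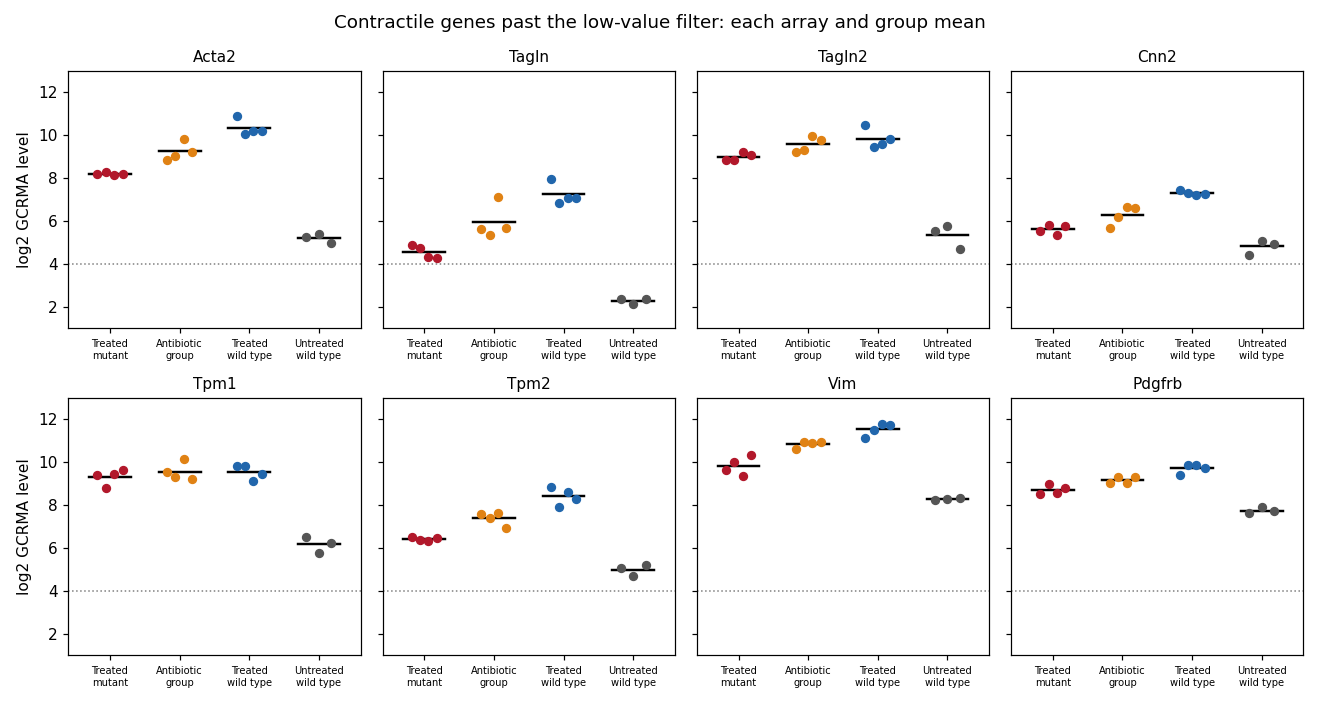
Log2 GCRMA level (vertical axis) of the probe set standing for each of the 8 tested genes, with a point for each array, a bar for the group mean and a dotted line at 4; the groups run from treated mutant through antibiotic group and treated wild type to untreated wild type. For Acta2 the treated mutant arrays lie at 8.15 to 8.30, the antibiotic arrays at 8.84 to 9.84, the treated wild-type arrays at 10.03 to 10.91 and the untreated ones at 4.97 to 5.41, whereas for Tpm1 the 3 treated groups overlap.

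Acta2, alpha smooth muscle actin, is the actin of the stress fibres of myofibroblasts. Its level (probe set 1416454_s_at) was 8.17, 8.30, 8.15 and 8.19 in treated mutant livers, 8.84, 9.05, 9.84 and 9.23 in the antibiotic group, 10.91, 10.03, 10.20 and 10.21 in treated wild type and 5.27, 5.41 and 4.97 in untreated wild type. The 4 groups did not overlap, and the mutant arrays lay within 0.15 of each other. Treated wild type was 5.12 ± 0.23 (SE) higher than untreated on the log2 scale, 34.8-fold (adjusted p = 3.26e-10). The mutant was lower than treated wild type by a log2 difference of -2.13 ± 0.21 (4.39-fold, adjusted p = 6.14e-06), and the antibiotic group by -1.10 ± 0.21 (2.14-fold, adjusted p = 0.00528). The mutant nevertheless stood 2.99 ± 0.23 above untreated wild type, 7.93-fold. Actin genes are similar in sequence and this probe set's name marks probes shared between transcripts. Skeletal muscle actin Acta1 and enteric smooth muscle actin Actg2 did not reach the filter, and the cytoplasmic actins Actg1 and Actb were 1.96 and 0.48 higher in treated than in untreated wild type. Their part in the signal of this probe set was not tested. The other probe sets of the gene, 1444105_at and 1456658_at, read 1.39 to 1.84 on all arrays and carry no information on it.

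Tagln, transgelin or SM22 alpha, is an actin-binding protein of smooth muscle and myofibroblasts. It read 4.87, 4.76, 4.32 and 4.26 in the treated mutant, 5.62, 5.34, 7.10 and 5.67 in the antibiotic group, 7.96, 6.85, 7.09 and 7.05 in treated wild type and 2.36, 2.12 and 2.35 in untreated wild type. The untreated arrays lay under 4, so the rise in treated wild type, a log2 difference of 4.96 ± 0.35, is given as at least 9.43-fold with the untreated arrays set to 4. The mutant's log2 difference from treated wild type, -2.69 ± 0.33 (6.43-fold, adjusted p = 3.67e-05), was the largest of the 8 genes in that comparison. The antibiotic group differed by -1.31 ± 0.33 (2.47-fold, adjusted p = 0.0172) and overlapped treated wild type through array 14, which read 7.10 where the other 3 antibiotic arrays lay at 5.34 to 5.67. That call missed the threshold without array 12 (adjusted p = 0.0529) and when only the 2 groups were fitted (0.0611).

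Tagln2, a transgelin with wide expression that also binds actin, rose with treatment and was lower in the mutant. Its brighter probe set (1439407_x_at) gave 8.82, 8.86, 9.21 and 9.08 in the mutant, 9.23, 9.33, 9.96 and 9.78 in the antibiotic group, 10.46, 9.45, 9.57 and 9.84 in treated wild type and 5.52, 5.75 and 4.71 in untreated wild type. Every mutant array lay below every treated wild-type array, while the antibiotic arrays overlapped them. The rise in treated wild type was 4.51 ± 0.27 (22.7-fold). The mutant's log2 difference from treated wild type was -0.84 ± 0.25 (adjusted p = 0.0208) and lost its call without array 4 (0.0639), 8 (0.0574) or 9 (0.0536). In the antibiotic group the difference was -0.25 ± 0.25 (adjusted p = 0.552, 95% interval -0.79 to 0.28). The dimmer probe set 1426529_a_at gave a larger log2 difference for the mutant, -1.71 ± 0.30 (adjusted p = 0.000874), with 6.44, 6.23, 6.23 and 7.09 in the mutant and 8.98, 7.77, 7.84 and 8.22 in treated wild type. For the antibiotic group that set gave -0.52 ± 0.30 (adjusted p = 0.292). The third set, 1420245_x_at, stayed at 1.45 to 2.13.

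Cnn2, calponin 2, is an actin-binding regulator found in smooth muscle and also in cells such as macrophages. Levels were 5.51, 5.81, 5.36 and 5.78 in the mutant, 5.65, 6.17, 6.67 and 6.60 in the antibiotic group, 7.45, 7.28, 7.19 and 7.24 in treated wild type and 4.43, 5.07 and 4.94 in untreated wild type. Treated wild type stood apart from the other groups, and the mutant and antibiotic arrays overlapped. The log2 differences were 2.48 ± 0.22 for treated over untreated wild type (5.56-fold), -1.68 ± 0.21 for the mutant against treated wild type (adjusted p = 3.87e-05) and -1.01 ± 0.21 for the antibiotic group against it (adjusted p = 0.00668). The treated mutant was above untreated wild type by only 0.80 ± 0.22 (adjusted p = 0.00744), the smallest such difference of the 8, and this call was lost under quantile normalisation (0.42, adjusted p = 0.116).

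**Figure D2:**
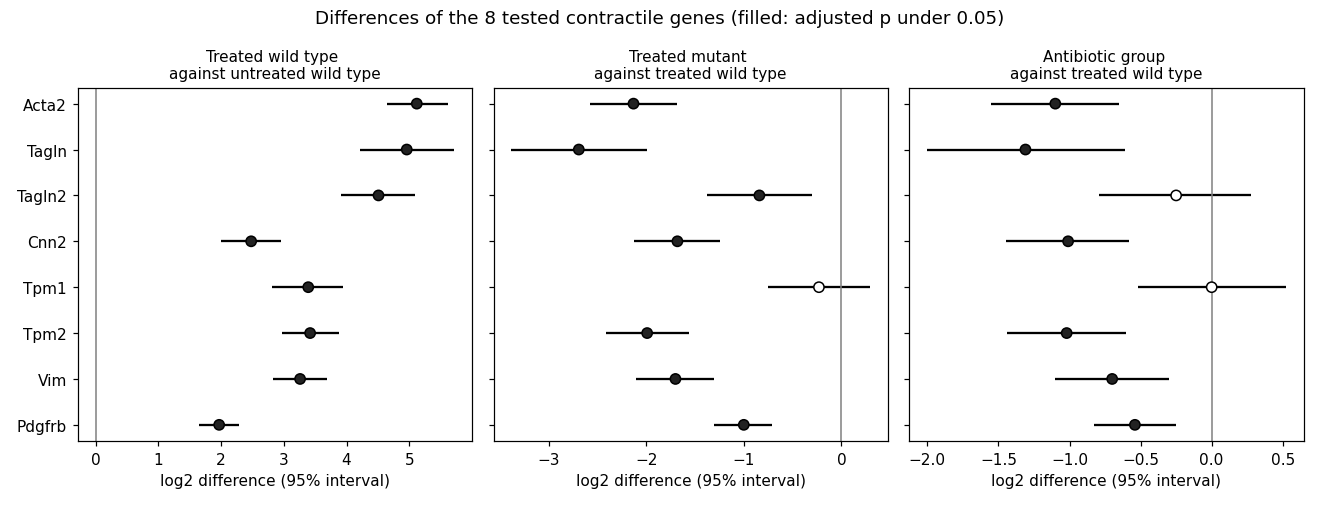
Log2 differences (points) with 95% intervals (lines) of the 8 tested genes in 3 comparisons, filled where the adjusted p was under 0.05. All 8 are filled for treated against untreated wild type, while the intervals of Tpm1 cross 0 in the mutant and antibiotic comparisons, as does that of Tagln2 in the antibiotic comparison.

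The tropomyosins, coiled-coil proteins that lie along actin filaments and govern myosin's access to them, differed between the 2 members. Tpm1 (1423721_at) read 9.40, 8.81, 9.47 and 9.66 in the treated mutant, 9.55, 9.30, 10.17 and 9.23 in the antibiotic group, 9.84, 9.81, 9.15 and 9.45 in treated wild type and 6.52, 5.76 and 6.26 in untreated wild type. The 3 treated groups overlapped and all lay above the untreated arrays. Treated wild type exceeded untreated by 3.39 ± 0.26 (10.4-fold, adjusted p = 6.85e-08), but the mutant differed from treated wild type by -0.23 ± 0.24 (adjusted p = 0.506, 95% interval -0.75 to 0.29) and the antibiotic group by -0.003 (adjusted p = 0.995, interval -0.52 to 0.52). The intervals leave room for falls of up to 0.75 and 0.52 on the log2 scale. The second Tpm1 set, 1423049_a_at, was more variable, with 6.25, 5.78, 7.12 and 7.12 in the mutant, 6.70, 6.83, 8.81 and 7.41 in the antibiotic group, 7.88, 7.74, 6.51 and 7.66 in treated wild type and 3.30, 3.78 and 3.01 in untreated wild type. It too was not called in the mutant (-0.88 ± 0.45, adjusted p = 0.156) or antibiotic comparison (-0.01 ± 0.45, adjusted p = 0.99). Tpm1 gives rise to many splice forms, and which of them these probe sets detect was not tested.

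Tpm2, beta-tropomyosin, passed the test in all 3 comparisons. It read 6.54, 6.39, 6.33 and 6.48 in the mutant, 7.61, 7.39, 7.65 and 6.93 in the antibiotic group, 8.86, 7.94, 8.62 and 8.27 in treated wild type and 5.09, 4.70 and 5.20 in untreated wild type, with no overlap between any groups. Treated wild type was 3.42 ± 0.21 above untreated (10.7-fold). Against treated wild type the mutant differed by -1.99 ± 0.20 (3.96-fold, adjusted p = 6.54e-06, 95% interval -2.41 to -1.56) and the antibiotic group by -1.02 ± 0.20 (2.03-fold, adjusted p = 0.00539, interval -1.44 to -0.60). A second probe set, 1425028_a_at, gave -2.05 ± 0.21 and -1.03 ± 0.21 for these comparisons, with 4.46 to 5.28 in the mutant, 5.21 to 6.08 in the antibiotic group and 6.58 to 7.14 in treated wild type. The intervals of these Tpm2 sets do not meet those of the brighter Tpm1 set in either comparison, but they do meet those of the dimmer one (-1.84 to 0.07 in the mutant and -0.96 to 0.94 in the antibiotic group). The difference between the genes was not itself tested.

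Myl9, the regulatory light chain of smooth muscle myosin, had 1 probe set and reached 4 on a single array. It read 2.17, 2.04, 2.33 and 2.31 in the mutant, 3.24, 2.83, 3.54 and 3.0 in the antibiotic group, 4.17, 3.88, 3.72 and 3.55 in treated wild type and 1.88, 1.73 and 2.00 in untreated wild type. The order of the groups was that of Acta2 and no arrays overlapped, at levels close to background. In a fit with no filter on low values, the log2 difference was 1.96 for treated over untreated wild type (adjusted p = 1.92e-07), -1.62 for the mutant against treated wild type (5.28e-06) and -0.67 for the antibiotic group against it (0.0166). The mutant was not called against untreated wild type in that fit (0.34, adjusted p = 0.134).

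Vim, vimentin, is the intermediate filament protein of mesenchymal cells, and leukocytes and endothelium carry it too. The brightest of its 3 probe sets (1438118_x_at) read 9.66, 10.02, 9.38 and 10.33 in the mutant, 10.61, 10.96, 10.89 and 10.94 in the antibiotic group, 11.15, 11.52, 11.78 and 11.75 in treated wild type and 8.23, 8.30 and 8.33 in untreated wild type. No groups overlapped. The log2 differences were 3.26 ± 0.20 for treated over untreated wild type (9.61-fold), -1.70 ± 0.19 for the mutant against treated wild type (3.25-fold, adjusted p = 1.61e-05) and -0.70 ± 0.19 for the antibiotic group against it (1.63-fold, adjusted p = 0.0227). The last call was lost without array 6 (0.0639), 7 (0.07) or 12 (0.0692). The other probe sets gave -2.05 ± 0.22 (1456292_a_at) and -2.48 ± 0.39 (1450641_at) for the mutant, and -0.88 ± 0.22 (adjusted p = 0.019) and -0.79 ± 0.39 (adjusted p = 0.2) for the antibiotic group.

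Des, desmin, the muscle intermediate filament long used to stain rodent stellate cells, stayed under 4 on all 15 arrays. Its brighter probe set (1426731_at) read 3.16, 2.98, 2.82 and 2.95 in the mutant, 2.8, 2.98, 3.83 and 3.52 in the antibiotic group, 3.99, 3.20, 3.30 and 3.38 in treated wild type and 2.92, 3.02 and 3.35 in untreated wild type, and the other (1426732_at) 1.71 to 2.11 throughout. Treated and untreated wild type overlapped, and the fit without a filter gave 0.37 (adjusted p = 0.213). These probe sets were too dim to say whether desmin changed.

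Pdgfrb, the receptor for the PDGF B chain and a surface marker of stellate cells and pericytes, passed the test in all 3 comparisons. Its level (1436970_a_at) was 8.51, 9.01, 8.57 and 8.79 in the mutant, 9.06, 9.30, 9.05 and 9.32 in the antibiotic group, 9.41, 9.87, 9.87 and 9.74 in treated wild type and 7.62, 7.92 and 7.72 in untreated wild type. No groups overlapped, and the rise with treatment was the smallest of the 8. Treated exceeded untreated wild type by 1.97 ± 0.15 (3.92-fold), the mutant differed from treated wild type by -1.0 ± 0.14 (2.00-fold, adjusted p = 0.000107) and the antibiotic group by -0.54 ± 0.14 (1.45-fold, adjusted p = 0.0189). The antibiotic call was lost without array 5 (0.0546), 6 (0.0526), 12 (0.0554) or 14 (0.0515). The gene's other probe set, 1417148_at, read 2.92 to 3.98 on all arrays.

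**Figure D3:**
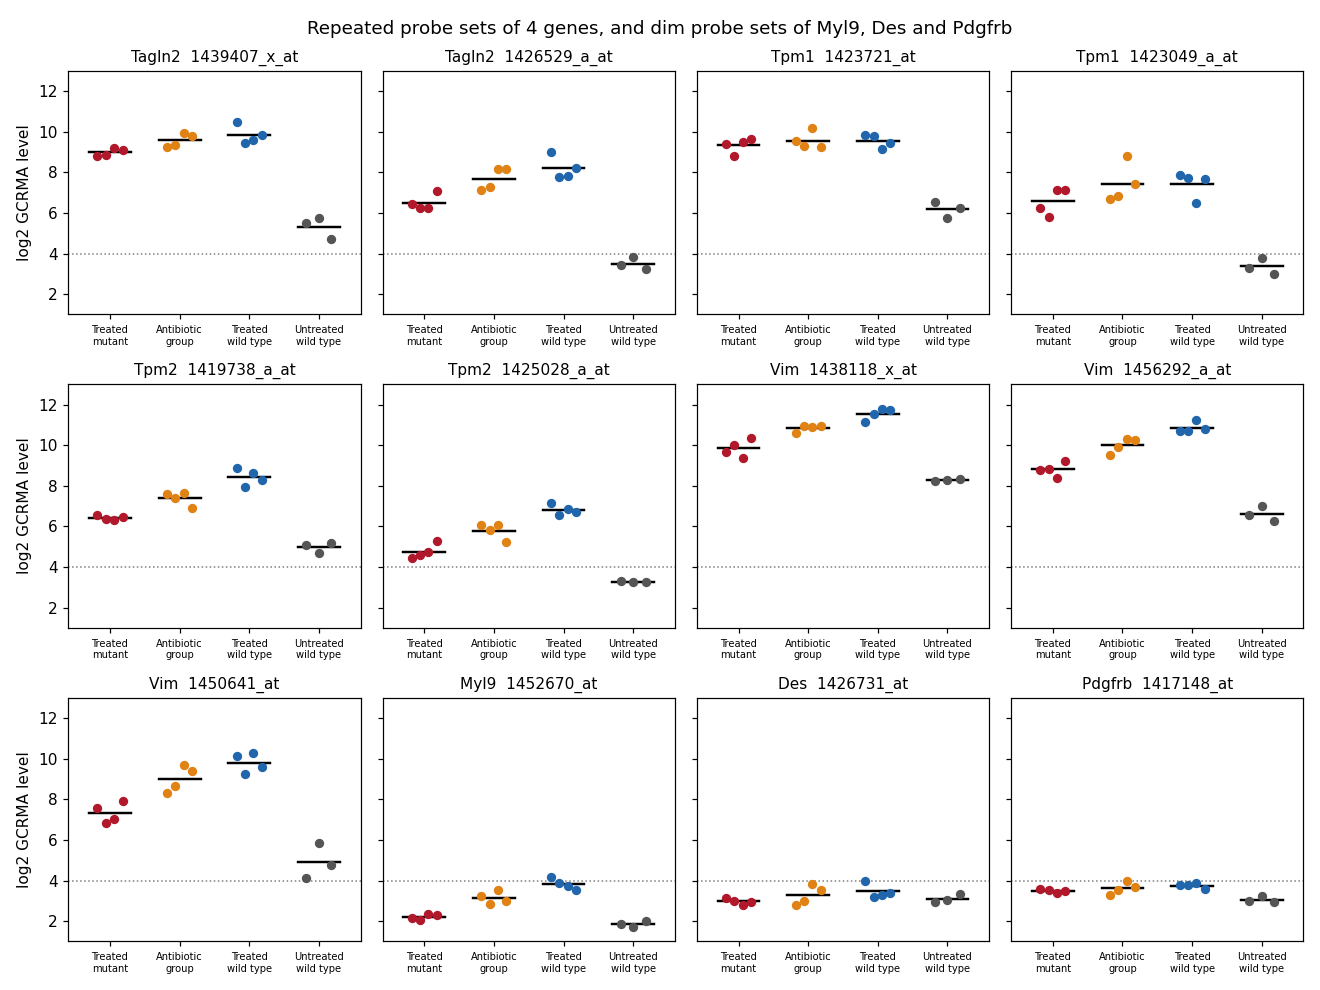
Log2 GCRMA level (vertical axis) of every probe set past the filter for Tagln2, Tpm1, Tpm2 and Vim, and of 1 dim set each of Myl9, Des and Pdgfrb, with a point for each array, a bar for the group mean and a dotted line at 4. Both Tpm1 sets overlap across the 3 treated groups. Both Tpm2 sets lie lower in the mutant and the antibiotic group than in treated wild type without overlap. The Myl9 groups do not overlap but nearly touch, and only 1 array reaches 4. For Myl9 the highest antibiotic array reads 3.54 beside 3.55 for the lowest treated wild-type array. The lowest mutant array reads 2.04 beside 2.0 for the highest untreated one.

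Over probe sets rather than genes, 13 of 13 were higher in treated than in untreated wild type (34.2% of all 15541 probe sets), 11 of 13 were lower in the mutant than in treated wild type (16.1%) and 8 of 13 lower in the antibiotic group (7.86%). The Tagln set and the dimmer kept sets of Tagln2, Tpm1 and Tpm2 passed the filter through treated arrays alone, which bears on the first count. The 2 not called in the mutant were those of Tpm1, and the 5 not called in the antibiotic group were those of Tpm1 and Tagln2 with 1 of Vim. Over genes, the antibiotic and treated wild-type arrays did not overlap for 5 of the 8, where 11.6% of all genes lay lower in the antibiotic group without overlap.

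The antibiotic group lay between the treated mutant and treated wild type for most members. It was higher than the mutant for 6 of the 8 genes (6.88% of all genes were called higher and 5.41% lower), with log2 differences of 1.38 ± 0.33 for Tagln (adjusted p = 0.014), 1.04 ± 0.21 for Acta2 (0.00588), 1.00 ± 0.19 for Vim (0.00357), 0.96 ± 0.20 for Tpm2 (0.00619), 0.66 ± 0.21 for Cnn2 (0.0481) and 0.46 ± 0.14 for Pdgfrb (0.0406). The calls of Cnn2 and Pdgfrb lay close to the threshold and were lost when only these 2 groups were fitted (0.113 and 0.0852) and without array 14 (0.137 and 0.056). Tagln2 (0.59 ± 0.25, adjusted p = 0.143) and Tpm1 (0.23 ± 0.24, adjusted p = 0.579) were not called. At the stricter adjusted p of 0.01, 3 of the 8 were called.

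The 8 tested members were above the level of untreated wild-type livers in the treated mutant and in the antibiotic group. As no untreated mutant was analysed, the mutant comparison cannot separate treatment from strain and Tlr4 allele. The mutant was above untreated wild type for all 8 genes (32.6% of all genes were called higher, 21.5% lower), from 0.80 ± 0.22 for Cnn2 to 3.66 ± 0.27 for Tagln2. For Tagln that call rested on untreated arrays near background and was lost with dim values raised to 4. The antibiotic group was above it for all 8 too (34.5% higher, 24.3% lower), from 1.43 ± 0.15 for Pdgfrb to 4.25 ± 0.27 for Tagln2. Tpm1 stood 3.15 ± 0.26 above untreated in the mutant and 3.38 ± 0.26 in the antibiotic group, close to its 3.39 ± 0.26 in treated wild type.

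The same arrays often ranked highest or lowest in their group. In the antibiotic group array 14 was the highest for 10 of the 13 member probe sets and array 12 the lowest for 8, and in treated wild type array 4 was the highest for 9. Leaving out array 12 reduced the members called in the antibiotic group against treated wild type to 3, Acta2, Tpm2 and Cnn2.

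Other genes of the actin cytoskeleton were mostly higher with treatment. Of 25 tested, 21 were higher in treated than in untreated wild type, and the exception in direction was Lima1 (-0.69 ± 0.12, named because it was the only one). Among them were Tmsb10, a thymosin, at 3.34 ± 0.15, the tropomyosin Tpm4 at 3.31 ± 0.16 and Pdlim7, a stress fibre adaptor, which averaged 3.23 in untreated wild type and was at least 5.52-fold higher. Pdlim7 passed the filter through treated arrays alone, which bears on the count of 21. In the mutant 10 of the 25 were lower than in treated wild type by limma and none higher (0 at an unadjusted p under 0.05), with Tpm4 at -1.07 ± 0.15 and Tmsb10 at -0.44 ± 0.14, while Pdlim7 was at -0.28 ± 0.22 (adjusted p = 0.361). Of the 25, 5 were lower in the antibiotic group, Tpm4 among them (-0.67 ± 0.15, adjusted p = 0.0102). The list's median log2 difference was 1.00, -0.28 and -0.10 in these comparisons.

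Genes of fully differentiated smooth muscle were mostly out of range. Of 14 on the array 11 failed the filter, including smooth muscle myosin Myh11, calponin 1 (Cnn1), smoothelin (Smtn) and myocardin (Myocd). Itga8, an integrin chain of contractile and stellate cells, was 1.22 ± 0.24 higher in treated than in untreated wild type, lower in the mutant (-1.86 ± 0.22, adjusted p = 3.08e-05) and lower in the antibiotic group (-1.11 ± 0.22, adjusted p = 0.0063). Csrp2, a LIM protein of smooth muscle and stellate cells, was 0.42 ± 0.10 higher with treatment and lower, by -0.55 ± 0.09 in the mutant and -0.52 ± 0.09 in the antibiotic group. Mylk, the kinase of the myosin light chain, was lower in treated than in untreated wild type (-0.43 ± 0.17, adjusted p = 0.039) and was not called in the mutant (-0.41 ± 0.16, adjusted p = 0.0583) or the antibiotic group (0.03 ± 0.16).

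Of 15 tested genes of the PDGF and TGF-beta pathways, 8 were higher with treatment and 1 lower. Tgfbr2, the type II TGF-beta receptor, rose by 2.99 ± 0.34, the matrix protein gene Ccn2 by 3.6 ± 0.47 and the endothelin receptor Ednrb by 2.41 ± 0.17. In the mutant 7 of 15 were lower, among them Ednrb (-1.32 ± 0.16, adjusted p = 2.95e-05), while Tgfbr2 (-0.71 ± 0.32, adjusted p = 0.101) and Ccn2 (-0.84 ± 0.43, adjusted p = 0.16) were not called. By limma none of the 15 was lower in the antibiotic group (4 at an unadjusted p under 0.05), and the angiotensin receptor Agtr1a was higher (0.53, adjusted p = 0.0227, named because it was the only one); it was also the only one lower with treatment (-0.77). Other intermediate filament genes rose in 7 of 7 tests with treatment, led by nuclear lamin Lmnb1 (2.36 ± 0.22) and the epithelial keratin Krt18 (2.03 ± 0.23). In the mutant 2 of the 7 were lower, including Lmnb1 (-1.23 ± 0.20, adjusted p = 0.000441), and Krt18 was at 0.05 ± 0.22.

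**Figure D4:**
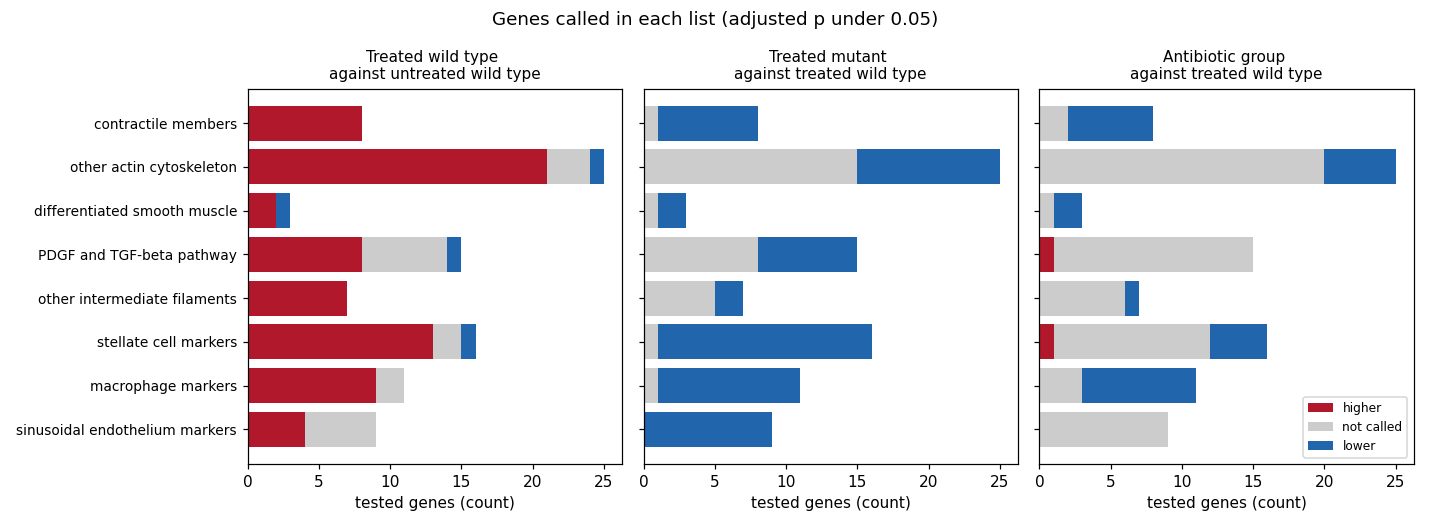
Number of tested genes (horizontal axis) called higher, not called or called lower at an adjusted p under 0.05, for the 8 tested contractile genes and for 7 lists of related genes or cell type markers, in 3 comparisons. Of the 16 stellate cell markers, 15 are lower in the mutant and 4 in the antibiotic group against treated wild type.

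Markers of stellate cells themselves, apart from the members, were higher in the antibiotic group than in the mutant for 10 of 16, with a median log2 difference of 1.21. Of the 16 tested (Ngfr, Vipr1 and Lhx2 failed the filter), 13 were higher in treated than in untreated wild type, among them the collagens Col1a2 (4.36 ± 0.40, 20.5-fold), Col3a1 (3.30 ± 0.36, 9.86-fold) and Col1a1, which averaged 7.28 in treated and 2.10 in untreated wild type and so rose at least 9.68-fold. Col1a1 passed the filter through treated arrays alone, which bears on the count of 13. In the mutant 15 of 16 were lower than in treated wild type and the median difference was -1.34. In the antibiotic group 4 were lower, Col1a1 (-1.35 ± 0.41, adjusted p = 0.0428), Col1a2 (-1.51 ± 0.37, adjusted p = 0.0165), Col3a1 (-1.06 ± 0.33, adjusted p = 0.0479) and the metalloproteinase inhibitor Timp1 (-1.43, adjusted p = 0.0271), 1 was higher (Ecm1, 1.03, adjusted p = 0.0257) and the median was 0.07. The summed level of these markers on the linear scale was 4600 to 6160 in the mutant, 11100 to 14900 in the antibiotic group, 14700 to 16000 in treated wild type and 2710 to 6230 in untreated wild type. Against untreated wild type, 4 of the 16 were higher in the mutant and 3 lower (32.6% and 21.5% of all genes), with a median of -0.11. The 8 members were all higher there, with a median of 1.92. In the antibiotic group 14 of the 16 markers were higher than in untreated wild type and 1 lower (34.5% and 24.3% of all genes).

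Markers of some other liver cells, macrophages among them, changed in the same direction as the members, and those of others did not. Of 11 tested macrophage markers 9 were higher in treated than in untreated wild type, and 10 were lower in the mutant and 8 in the antibiotic group than in treated wild type. Their summed linear level was 1160 to 1590 in the mutant, 2560 to 5370 in the antibiotic group, 5990 to 9230 in treated wild type and 783 to 2220 in untreated wild type. Of the 9 that rose with treatment, Cd68 and Marco averaged 2.86 and 3.24 in untreated wild type. They passed the filter through treated arrays alone, which bears on that count. Vsig4, a receptor of resident macrophages, was at least 40.7-fold lower in the mutant and 5.54-fold lower in the antibiotic group. Cd68 was not called by limma in either (0.02 ± 0.28, and 0.86 ± 0.28 with adjusted p = 0.056). In the antibiotic group 1 of the 11 was higher and 10 lower at an unadjusted p under 0.05. With centring and with quantile normalisation 1 was called higher there. Of 9 sinusoidal endothelial markers 4 were called higher and 0 lower in treated than in untreated wild type. All 9 were lower in the mutant, with a summed level of 1260 to 1710 against 2710 to 3150 in treated wild type. The mutant's sum overlapped that of untreated wild type (1280 to 2200). None of the 9 was called in the antibiotic group by limma (2280 to 3120, with 1 higher and 0 lower at an unadjusted p under 0.05). Of 4 pericyte markers 3 were higher with treatment and 2 lower in the mutant, while in the antibiotic group 1 was higher and 0 lower (0 lower also at an unadjusted p under 0.05, median difference 0.13), and Cspg4 and Higd1b failed the filter. Of 6 neutrophil genes S100a8 and S100a9 passed it. Their means were over 4 in treated wild type alone (5.84 and 4.6) and 2.54 to 3.52 in the other groups. The highest reading was 4.05 in the mutant, 3.9 in the antibiotic group and 2.87 in untreated wild type. Both genes thus passed the filter through treated wild type, so the direction of their differences follows from that group, and the differences are bounds. S100a8 was at least 3.58-fold higher in treated than in untreated wild type and at least 3.55-fold lower in the mutant than in treated wild type, and S100a9 at least 1.51-fold in both. In the antibiotic group they were lower by at least 3.58-fold and 1.51-fold. None of 7 hepatocyte markers was called by limma in the mutant (1 higher at an unadjusted p under 0.05) or the antibiotic group (0 either way), the 11 skeletal muscle markers and the 10 T and NK cell markers were under 4 on every array, and 8 of 10 portal fibroblast markers were too. Of the remaining portal fibroblast markers, Dpt was at least 2.31-fold higher with treatment, lower in the mutant (at least 2.31-fold, adjusted p = 2.42e-05) and lower in the antibiotic group (at least 1.91-fold, adjusted p = 0.00278), and Entpd2 was not called in any of these comparisons. Of 3 cholangiocyte markers, all near background, 2 were higher with treatment, none was lower in the mutant or the antibiotic group by limma (0 in either at an unadjusted p under 0.05), and Sox9 was at least 1.99-fold higher in the mutant (adjusted p = 0.00116). Both mesothelial markers that passed were higher with treatment and neither was called in the mutant or the antibiotic group. Of 2 B cell markers Ighm was at least 18.6-fold lower in treated than in untreated wild type and close to background in all treated groups. Bank1 averaged 4.6 (SD 1.09) in treated wild type, 2.39 in the mutant, 2.8 in the antibiotic group and 2.83 in untreated wild type. It passed the filter through treated wild type alone, so the direction of its differences follows from that group. Those differences, at least 1.51-fold against each of the other groups, are bounds. The part of these cells in the levels of Vim, Cnn2, Tagln2 and the other members was not tested.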

How the data were processed

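Liver RNA (15 samples, 1 array each) was amplified and biotin labelled with a 3' IVT kit, per the labels' protocols. The authors deposited log2 values made with GCRMA, per the submitters' processing notes; version and settings are not given in the sources used here. They were used as deposited, with 0 missing values and 0 columns unused. Probe sets were named from the platform's annotation, updated through RefSeq (GRCm38.p6). Of 45101 probe sets 34945 carried 1 symbol, 932 several, 9160 none and 64 were controls. Those reaching 4 on at least 3 arrays were kept (15541), and the brightest on average stood for its gene (9482 genes). A gene under 4 on every untreated array passed through treated arrays alone. Its direction against untreated livers was largely set by the filter, which bears on the counts of genes higher with treatment. Between 34.6% and 36.7% of probe sets reached 4 per array. Precision is limited by how many arrays there are, and signal over background takes the place of depth.

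Group means were fitted to all 15 arrays with limma 3.58.1 in R 4.3.3 (11 residual degrees of freedom), and p-values were adjusted within each comparison; the procedure was tested on simulated data. The labels do not say that each array is a separate animal, so p-values measure the spread between these samples. Named genes were all members and, from each list, up to 3 called genes with the largest differences, besides those said to be sole exceptions and those named as failing the filter. Members and lists were chosen with earlier results of these data known. Alternatives were centring, quantile normalisation, other filters, values under 4 set to 4, means of probe sets, array weights, other priors, fits of only the groups compared, a stricter threshold and leaving out each array. A description in the labels naming other ages and a liver resection contradicts the remaining labels and was not used.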

Additional observations from a re-analysis of the deposited data

Results flagged for a closer look

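Of 39 sets of 4 arrays (13 member probe sets in 3 groups), 2 held an array far from the other 3 by Dixon's criterion, which marks about 1 in 20 by chance. Both were array 6 of treated wild type. It read 11.24 for the Vim probe set 1456292_a_at, where the others read 10.70, 10.72 and 10.78. It read 6.51 for the Tpm1 probe set 1423049_a_at, where the others read 7.66, 7.74 and 7.88.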

How the results depend on the processing

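Over the alternatives run for single members, 1140 values kept direction and call, 51 lost the call, 1 gained it and 8 changed sign. The sign changes were all Tpm1 in the antibiotic group against treated wild type, whose -0.003 became 0.041 with centred arrays, 0.043 with quantile normalisation and 0.108 with array weights, and ran from -0.207 to 0.106 when an array was left out; it was never called. The count of members called in that comparison was 3 at an adjusted p under 0.01, and 3 to 6 with an array left out (3 without array 12). The antibiotic group against the mutant gave 3 at an adjusted p under 0.01. Tagln in the mutant against untreated wild type was not called once dim values were raised to 4 (0.55, adjusted p = 0.205), and Tagln2 in the antibiotic group against the mutant was called with the mean of its probe sets (0.89, adjusted p = 0.0414). Cnn2 and Pdgfrb lost their call in the antibiotic group against the mutant under many alternatives. The causes were not tested. Centring gave an all-gene median of -0.122, in place of 0.101, for treated over untreated wild type; all 8 members stayed higher there, while the PDGF list had 7 higher and 2 lower, the smooth muscle list 1 and 1, other intermediate filaments 5 and 0, and stellate markers 11 and 1. With quantile normalisation these were 6 and 2, 2 and 1, 4 and 0, and 12 and 1. No paired analysis was possible because the labels number arrays across groups and name no pairing. Low signal limits Myl9 and Des, whose probe sets lie near background.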
